A study of Mus musculus with 8 samples.

Results

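Hepatic mRNA levels of 10 immediate early genes (Egr1, Egr2, Egr3, Fos, Fosb, Fosl2, Jun, Junb, Atf3 and Ier3) were described in mice administered a standard chow (STD) or an atherogenic (ATH) diet. The genes were taken by name from the array, which carried 13 probes for them, and they are 10 of 19505 named genes on it. They were picked with values of this diet contrast already known, so their values are given as a description, with no test. Total RNA came from liver of wild-type male C57BL/6 mice (C57BL/6J per the study's methods) that were 14 to 17 weeks old when the experiment began. The diet lasted 4 weeks and was either standard chow or, for the ATH group, a high-fat/high-cholesterol diet that per the study's methods also holds cholic acid, and the liver was snap frozen after CO2 asphyxiation. Each diet had 4 livers, each on 1 one-colour Agilent array. The 4 STD arrays lay on 1 slide and the 4 ATH arrays on another, so that slide and diet cannot be told apart. All values below are log2 processed signals minus the 75th percentile of the same array, called scaled log2 signals, and 1 unit is a factor of 2 (log2). The level of a probe depends on its binding, so levels are compared between arrays and not between probes.

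Immediate early genes are transcribed within minutes of a stimulus from factors that the cell already holds, and their mRNAs are short-lived. The FOS and JUN proteins pair into the AP-1 transcription factor, and ATF3 belongs to the same basic leucine zipper class. EGR1, EGR2 and EGR3 are zinc finger factors that bind GC-rich sites. IER3 does not bind DNA and is known as a regulator of cell survival. The group is known in liver for its response to partial hepatectomy, ischaemia, cytokines and tissue handling. In whole liver, fewer cells of a type and less RNA per cell cannot be told apart.

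Promoter windows of RefSeq, from 250 bases before to 50 after each annotated start on GRCm38.p6, were held for 8 of the 10 genes. Egr1 and Egr3 had no entry. Both strands were searched for the AP-1 site TGANTCA, the cyclic AMP response element TGACGTCA, the EGR site GCGNGGGCG and the CArG box bound by serum response factor. These are the elements through which immediate early factors act on one another or are switched on. The AP-1 site and the cyclic AMP response element were found in 0 of the 8 genes, the EGR site in 2 and the CArG box in 1. These 8 genes had 12 windows and a gene counts by any of them, whereas the shares that follow are of single windows. Of 32851 promoter windows, 7.81% held the AP-1 site, 1.79% the cyclic AMP response element, 5.55% the EGR site and 1.63% the CArG box. Shown here are the matches, in capitals, with 10 bases on either side, 5′ to 3′ on the gene's strand.
Egr2, chr10:67537484-67537513, plus strand: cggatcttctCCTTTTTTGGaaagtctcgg
Egr2, chr10:67537787-67537816, plus strand: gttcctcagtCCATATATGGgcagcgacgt
Fosl2, chr5:32136383-32136411, plus strand: ccggctgcgcGCGGGGGCGgaagggcgcg
Fosb, chr7:19310077-19310105, minus strand: tgacgcaagcGCGGGGGCGggtcccggag
Both Egr2 stretches carry a CArG box that begins 72 bases before an annotated start. The Fosl2 match lies 79 to 71 bases before its start and the Fosb match 50 to 42 bases before. A match says that these letters are in the window, and binding was not measured. Sites outside the windows or with other letters were not searched, so a gene without a match may still have such an element.

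Among the EGR genes, Egr2 was higher on the ATH diet by 3.74 on the log2 scale (SE 0.50), or 13.3-fold, while Egr1 was lower by a mean difference of -1.32 (SE 0.58). SEs are those of the limma fit across all detected probes. Egr2 encodes the factor also known as Krox-20, which acts in myelination and in macrophages and T cells. The gene lies at chr10:67534469-67542188 (GRCm38.p6) and its 1 probe, A_51_P173043, at chr10:67145376-67145435 in the older mm7 assembly of the array design. Its scaled log2 signals were -4.06, -4.17, -4.03 and -4.74 in STD replicates 1 to 4. They were -0.70, -2.05, 0.55 and 0.15 in ATH replicates 1 to 4. The lowest ATH array, replicate 2, lay above every STD array, and the SD was 1.15 on the ATH and 0.33 on the STD arrays (n = 4 each). With normexp background correction the Egr2 difference was 2.14 in place of 3.74.

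Egr1 encodes the best studied member, which is known to be induced by growth factors, stress and mechanical stimuli. By its 1 probe, A_51_P367866, the scaled log2 signals were 2.28, 0.79, 3.37 and 3.44 on the STD diet and 1.25, 0.36, 1.96 and 1.03 on the ATH diet. The groups overlapped, since STD replicate 2 lay below 3 of the 4 ATH arrays, and the means were 2.47 ± 1.24 and 1.15 ± 0.66 (SD, n = 4 each). Egr3, a target of the same signals, had 2 probes. The brighter probe, A_51_P437198, gave -4.94, -5.11, -2.82 and -4.82 on the STD diet and -5.68, -5.14, -5.45 and -5.84 on the ATH diet, a difference of -1.11 (SE 0.47). The 4 ATH arrays lay below the 4 STD arrays, but ATH replicate 2 and STD replicate 2 were nearly level, and STD replicate 3 was far above the other STD arrays. Without STD replicate 3 the difference of this probe was -0.57. The other Egr3 probe, A_52_P440836, lies 3.152 kb away in the array design's mm7 assembly and was not well above background on any of the 4 STD arrays but was so on 3 of the 4 ATH arrays. It passed the detection filter through the ATH arrays alone and its diets overlapped, so no fold or direction is drawn from it. The direction of Egr3 thus rests on 1 probe.

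**Figure D1:**
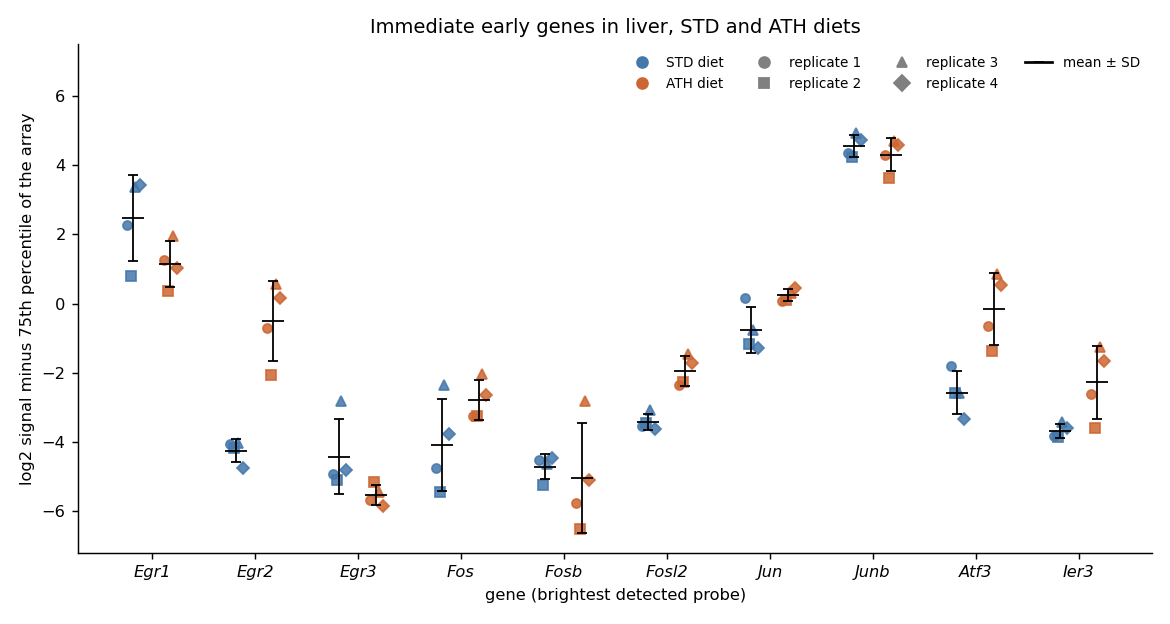
Scaled log2 signal (vertical axis) of the brightest detected probe of each of the 10 genes (horizontal axis) on the 4 STD (blue) and 4 ATH (orange) arrays, with marker shapes for replicates and black bars for the mean ± SD (n = 4). The 4 ATH arrays lie above the 4 STD arrays for Egr2, Fosl2 and Atf3 and below them for Egr3, and the diets overlap for the other 6 genes.

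Of the FOS genes, Fosl2 was higher on the ATH diet by one of its probes, Fos had a higher mean with overlapping groups, and Fosb had nearly level means. Fos, which encodes the founding member of the family, gave -4.75, -5.43, -2.36 and -3.78 on the STD diet and -3.25, -3.24, -2.04 and -2.64 on the ATH diet. STD replicate 3 lay above 3 of the 4 ATH arrays, and the difference was 1.29 (SE 0.60) and 0.36 with normexp. Fosb gave -4.53, -5.25, -4.63 and -4.45 on the STD diet and -5.77, -6.50, -2.80 and -5.08 on the ATH diet, a difference of -0.33 (SE 0.68). Of its ATH arrays, replicate 3 was the highest of all 8 arrays and each of the other 3 lay below at least 3 STD arrays, and without ATH replicate 2 the sign turned (0.16). The sign of Fosb also turned with no scaling between arrays (0.12).

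Fosl2 encodes FRA-2, a FOS protein that lacks a strong transactivation domain, at chr5:32136472-32157840 (GRCm38.p6). Its brighter probe, A_52_P484903 (chr5:31189767-31189826 in mm7), gave -3.54, -3.44, -3.08 and -3.62 on the STD diet and -2.35, -2.27, -1.45 and -1.71 on the ATH diet. The lowest ATH array lay above the highest STD array, and the difference was 1.48 (SE 0.23), or 2.78-fold, and 0.70 with normexp. A second Fosl2 probe, A_51_P507242, which was detected on all 8 arrays and lies 4.536 kb away in mm7, gave -3.24, -3.41, -2.85 and -3.07 on the STD diet and -3.13, -2.89, -3.34 and -3.52 on the ATH diet. These groups overlapped and the difference was -0.08 (SE 0.18), so that the higher ATH level of Fosl2 was read by one probe and not by the other. The probe that was used here has the higher mean over both diets, a choice into which the ATH arrays enter.

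Of the JUN genes, Jun had a higher mean on the ATH diet and Junb differed little. Jun, the usual partner of FOS, gave 0.16, -1.17, -0.77 and -1.28 on the STD diet and 0.09, 0.12, 0.31 and 0.46 on the ATH diet. The 4 ATH arrays lay within a narrow range (SD 0.17), while STD replicate 1 lay at their level and the other STD arrays below it (SD 0.65), and the difference was 1.01 (SE 0.29). Junb, which can restrain JUN, gave 4.35, 4.23, 4.92 and 4.73 on the STD diet and 4.29, 3.63, 4.69 and 4.59 on the ATH diet. Its difference was -0.26 (SE 0.26) by this probe and 0.06 (SE 0.36) by a second one, which overlaps the first by 22 bases. Its sign also turned with no scaling (0.19) and with spike-in scaling (0.05), so no direction is given for Junb.

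Atf3, a stress-induced factor that often acts as a repressor, was higher on the ATH diet. The gene lies at chr1:191170296-191183333 (GRCm38.p6) and was read by 1 probe, A_52_P452689. Its scaled log2 signals were -1.81, -2.59, -2.57 and -3.32 on the STD diet and -0.64, -1.38, 0.86 and 0.54 on the ATH diet. All ATH arrays lay above all STD arrays, by a mean difference of 2.42 (SE 0.50), or 5.33-fold. Ier3 gave -3.83, -3.86, -3.41 and -3.61 on the STD diet and -2.61, -3.59, -1.25 and -1.65 on the ATH diet. ATH replicate 2 lay within the range of the STD arrays and the other 3 ATH arrays above it, and the difference was 1.40 (SE 0.45), or 2.64-fold, and 0.68 with normexp.

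**Figure D2:**
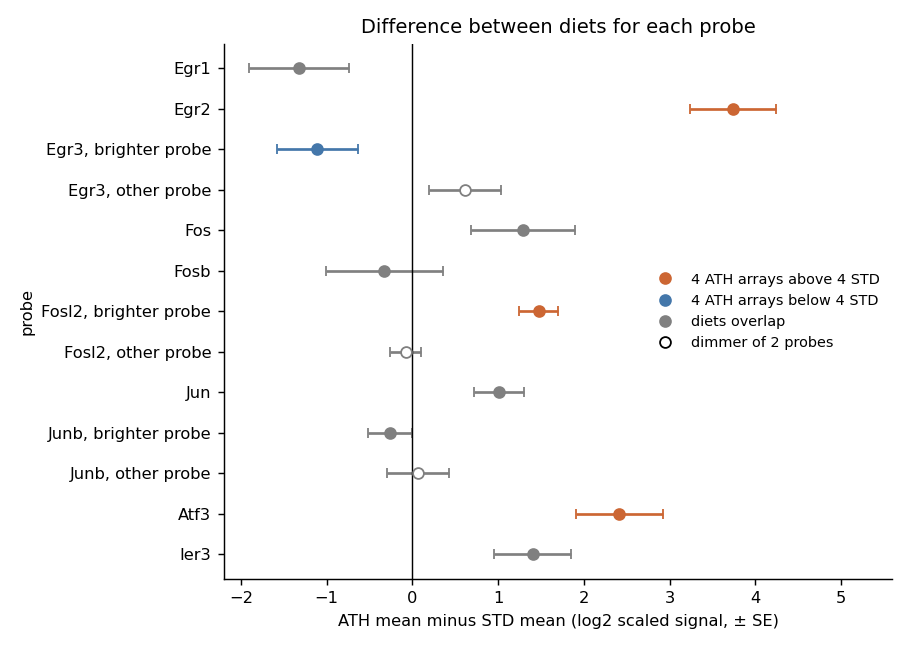
ATH mean minus STD mean of the scaled log2 signal (horizontal axis), with its SE from limma (bars), for each of the 13 probes (vertical axis), coloured by whether the 4 ATH arrays lie above, below or among the 4 STD arrays. The probes of Fosl2 lie at 1.48 and -0.08, and the open Egr3 point is of a probe that was not well above background on any STD array.

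By the brightest probe, 6 of the 10 genes had a higher and 4 a lower mean on the ATH diet. In 4 genes the diets did not overlap, 3 of them higher on ATH (Egr2, Fosl2 and Atf3) and 1 lower (Egr3). Among the 16558 named genes with a detected probe, 22.2% did not overlap, 7.59% higher and 14.6% lower. Since the genes were chosen on this contrast, nothing is read from that comparison. The median difference was 1.15 over the 10 genes and -0.14 over the 16558 genes, of which 34.9% had a higher ATH mean. The 75th percentile by which arrays were scaled was itself 0.45 higher (log2) on the ATH arrays. With no scaling the median of all detected probes moved from -0.15 to 0.30 and that of the 10 genes to 1.60, and with spike-in scaling they were 0.16 and 1.46. With normexp the median of the 10 genes was 0.52.

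Same-numbered arrays of the diets share a position on their slides, and within these 4 pairs the groups that overlapped could still run one way. For Egr2, Fosl2 and Atf3 (higher) and Egr3 (lower) the diets did not overlap, so 4 of 4 pairs is fixed under any pairing. Of the genes with overlap, Fos and Ier3 were higher on the ATH array in 4 of 4 pairs. Egr1 and Junb were lower in 4 of 4, though the mean difference of Junb turned sign with no scaling and with spike-in scaling. The share of all genes that run one way in 4 of 4 pairs was not computed, and no label says that same-numbered mice are matched. Nothing is read from these counts. Egr1 was lower by -1.03, -0.43, -1.41 and -2.40 in pairs 1 to 4, and blocking on replicate number gave its difference an SE of 0.32 in place of 0.58. Fos was higher by 1.5, 2.20, 0.32 and 1.14, with a blocked SE of 0.30 in place of 0.60. For Ier3 the pair differences were 1.21, 0.27, 2.17 and 1.95, with a blocked SE of 0.33 in place of 0.45. Jun was higher in 3 pairs and Fosb in 1. The blocked SE was larger for Jun (0.300 in place of 0.295) and for Atf3 (0.53 in place of 0.50). Over all detected probes, the block lowered the calls at 5% from 2482 to 1383.

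Replicates of a diet differed more for these genes than for most probes. The median SD within a diet was 0.49 on the STD and 0.62 on the ATH diet for the 10 genes, against 0.21 and 0.28 over all detected probes, and in each diet 9 of the 10 genes lay above that median. The gene below it was Ier3 on the STD diet (0.21) and Jun on the ATH diet (0.17). On the STD diet Fos, Egr1 and Egr3 were among the most variable of all probes, at percentiles 99.6, 99.4 and 99.0 of the SDs. On the ATH diet Fosb, Egr2 and Ier3 were at percentiles 99.6, 98.1 and 97.3. Probes were not matched by signal level here, and Fosb was well above background on 3 of the 4 ATH arrays. The part of noise near background in these SDs was not tested.

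The same arrays stood out across genes. ATH replicate 3 had the highest level of the ATH arrays in 8 of the 10 genes and ATH replicate 2 the lowest in 6. On the STD diet, replicate 3 was the highest in 6 genes and replicate 2 the lowest in 6. Each liver was on 1 array, and same-numbered arrays share a slide position. Liver, array and position thus cannot be told apart. The share of all genes for which these arrays were highest or lowest was not computed. The median scaled log2 signal of the 10 genes was -3.68, -3.65, -2.70 and -3.61 on STD replicates 1 to 4 and -1.52, -2.16, -0.47 and -0.75 on ATH replicates 1 to 4. ATH replicate 2 was thus the nearest to the STD arrays.

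The probes of Egr2, Fos and Jun were printed as 10 spots on each array, which shows how much of the spread lies within an array. The SD between spots of an array was 0.038 to 0.41 for Egr2, with a median of 0.11 over the 8 arrays. It was 0.039 to 0.44 for Fos, with a median of 0.090. For Jun it was 0.049 to 0.075, with a median of 0.064. On the ATH diet spot SDs were at most 0.055 for Egr2, 0.082 for Fos and 0.067 for Jun, beside SDs between livers of 1.15, 0.57 and 0.17. On the STD diet spot SDs were 0.16 to 0.41 for Egr2, 0.099 to 0.44 for Fos and 0.062 to 0.075 for Jun, beside SDs between livers of 0.33, 1.33 and 0.65. For Egr2 on the STD diet, the SD between livers (0.33) lies within the range of its single-spot SDs. The 2 are unlike measures, since a liver's value averages 10 spots and varies less with spot noise than a single spot does. The part of spot noise in that spread between livers was not tested. The widest spots were on dim arrays, namely STD replicate 4 for Egr2 (0.41) and STD replicate 2 for Fos (0.44). Between 72.3% and 77.8% of spots on an array were well above background.

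**Figure D3:**
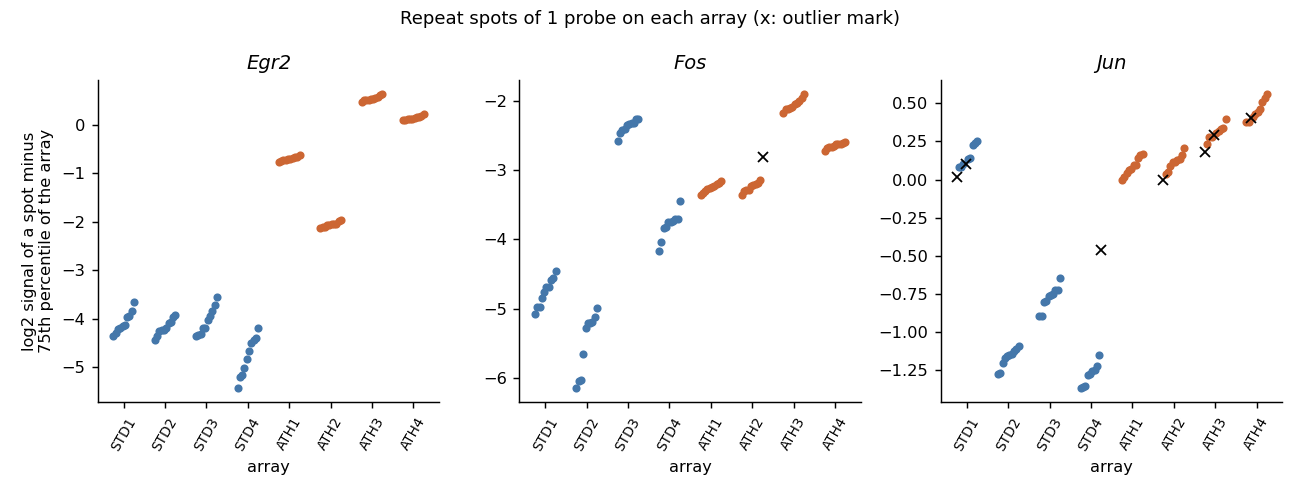
Scaled log2 signal (vertical axis) of the repeat spots of the Egr2, Fos and Jun probes on each of the 8 arrays (horizontal axis), with STD in blue, ATH in orange and spots that Feature Extraction marked as outliers as crosses. Spots of an array lie close together on the ATH arrays, and on STD replicate 1 the Jun spots lie among those of the ATH arrays.

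Other genes of the pathway were tested, as 5 lists of 85 genes that do not include the 10. These lists too were drawn up with earlier results of these data known. Of the 80 with a detected probe, 14 passed 5% in limma with Benjamini-Hochberg adjustment over all detected probes, 14 of them higher on the ATH diet and 0 lower. Over all named genes 9.34% passed, 4.05% higher and 5.3% lower. The median difference of the 80 genes was 0.26, with 52 higher and 28 lower, against -0.14 over all named genes. The count rests on the full set of arrays. It was 22 without ATH replicate 2, 7 without ATH replicate 1 and 2 without ATH replicate 3, and 3 without ATH replicate 4. It was 1 without STD replicate 1, 3 without STD replicate 2, 2 without STD replicate 3 and 3 without STD replicate 4. Calls over all detected probes moved likewise, so this is not particular to the lists. They went from 2482 to 412 without STD replicate 1, 394 without STD replicate 3 and 3986 without ATH replicate 2. At 1%, the level in the study's methods, 1 gene passed in limma. The methods' test as run here passed 0 of the pathway genes at 5%. Over all detected probes it passed 22 at 5%, 0 at 1% and 7105 at an unadjusted p below 0.05. The study lists significantly changed probes by this type of test at 1%, so its published calls differ from those given here. The cause of that difference was not tested. With no scaling 33 genes passed, and with normexp background correction 20 passed, 16 higher and 4 lower. The share of all genes that passed under these settings is not given here. With no scaling the median of all detected probes moved from -0.15 to 0.30.

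Upstream are the kinases and factors that switch these genes on. Of 17 detected genes of the list of MAP kinases, serum response factor, its partners and CREB, 0 passed in either direction, and the median difference was -0.01. The lowest adjusted p was that of Map2k2, which encodes MEK2, at -0.37 (SE 0.11, limma adjusted p = 0.071). Its sign turned with no scaling (0.07), and with normexp it passed (limma adjusted p = 0.028). Other settings called further upstream genes as higher. These were Elk3, Rps6ka1 and Srf with no scaling and with spike-in scaling, Mapk9 and Mkl1 (now Mrtfa) with no scaling and Rps6ka1 with normexp. The median of all detected probes was itself 0.30 with no scaling and 0.16 with spike-in scaling. The share of all genes called under these settings is not given here, so nothing is read from these calls. Of 11 detected feedback inhibitors, phosphatases and co-repressors that shut the response down, Dusp2 rose and 0 fell, with a median of 0.12. This count of 1 in 11 is near the 9.34% that passed over all named genes. Dusp2, a nuclear phosphatase of MAP kinases, was higher by 2.32 (SE 0.49, limma adjusted p = 0.031). The adjusted p was above 5% with each array left out except ATH replicate 2, with a highest value of 0.081, and it was 0.056 with the replicate number as a block.

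Of 11 detected other AP-1 and EGR factors, 1 rose and 0 fell, with a median of 0.39. A count of 1 in 11 is near the 9.34% that passed over all named genes. The gene that rose was Batf3, a basic leucine zipper factor of dendritic cells, at 1.41 (SE 0.35, limma adjusted p = 0.044). It did not pass with the replicate block (limma adjusted p = 0.076), with quantile normalization (0.054) or with each array left out except ATH replicate 2 (highest 0.11). Of 24 detected other immediate early genes, 4 rose and 0 fell, with a median of 0.25. The largest rise was that of Klf6, a zinc finger factor, which gave 1.33, 0.82, 1.08 and 0.84 on the STD diet and 2.24, 2.07, 2.72 and 2.54 on the ATH diet. The difference was 1.38 (SE 0.19, limma adjusted p = 0.0089), the only one of the 14 to pass 1%, and it passed 5% with each array left out (highest limma adjusted p = 0.031). The other 3 were Ier5, Klf4 and Rhob, named after their values were seen, at 1.20, 0.65 and 1.11. Klf4 did not pass with the replicate block. With an array left out, Ier5 and Rhob passed in 2 of 8 fits and Klf4 in 1.

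Of the 5 pathway lists, that of genes commonly reported as targets of AP-1 or EGR factors had the most calls. In it 8 of 17 detected genes were higher and 0 lower, with a median of 1.28. It was drawn up from general knowledge but with earlier results of these data known, and the paper reports higher hepatic Ccl2 on this diet. Its calls are thus not independent of these data. Among macrophage markers, 7 of 12 were called higher. Ccl2, which encodes the monocyte chemoattractant MCP-1, gave -1.43, -1.29, -0.83 and -2.07 on the STD diet and 2.29, -0.28, 3.10 and 2.75 on the ATH diet. All ATH arrays lay above all STD arrays, and the difference was 3.37 (SE 0.67, limma adjusted p = 0.026). It stayed past 5% with the replicate block (0.049) and without ATH replicate 2, and missed it without each of the other 7 arrays, with a highest value of 0.074. The others that rose, named after their values were seen, were the cytokine genes Tnf (3.14) and Il6 (1.29), the urokinase receptor gene Plaur (2.30), the hyaluronan receptor gene Cd44 (2.04), the collagenase gene Mmp13 and the growth factor genes Pdgfa (1.14) and Hbegf (0.76). Mmp13 was well above background on 2 of 4 STD and 4 of 4 ATH arrays, so it entered the test through the ATH arrays, and it and Il6 did not pass with normexp. Tnf did not pass with the replicate block. With an array left out, the targets that passed were 0, 2, 1 and 2 without STD replicates 1 to 4, and 3, 12, 1 and 2 without ATH replicates 1 to 4. Pdgfa passed in 7 of these 8 fits, Mmp13 in 3, Plaur, Cd44 and Il6 in 2 each, and Hbegf, Tnf and Ccl2 in 1 each, that without ATH replicate 2.

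**Figure D4:**
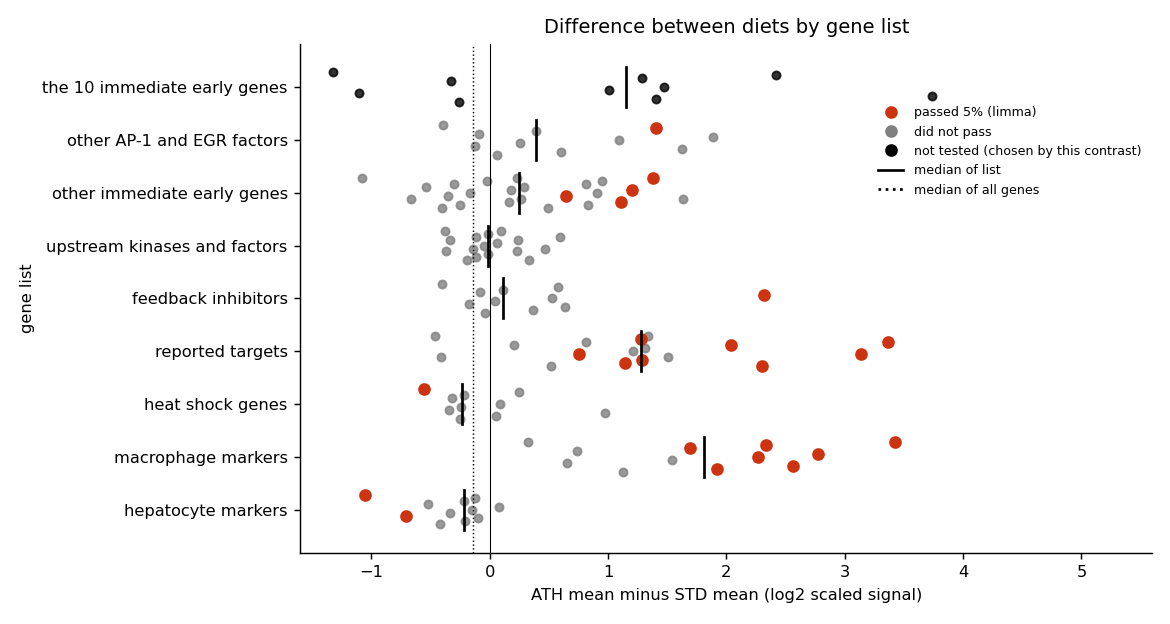
ATH mean minus STD mean of the scaled log2 signal (horizontal axis) for the 10 genes, which were not tested, and for each detected gene of 8 lists (vertical axis), with genes that passed 5% in limma in red, the list's median as a black bar and the median of all named genes (-0.14) as a dotted line. The reported targets hold 8 genes that passed and the upstream kinases and factors 0.

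Among lists of cell type markers, that of macrophages had the most calls. Over all named genes 9.34% passed 5%, 4.05% higher and 5.3% lower. All 12 macrophage markers had a higher ATH mean and 7 passed 5% (limma), with a median difference of 1.81. The summed linear scaled signal of the 12 was 91.9 to 107 on the STD arrays and 178 to 760 on the ATH arrays, and all 12, Emr1, Clec4f and Cd68 among them, were detected on all 8 arrays. Their median on ATH replicates 1 to 4 was 2.51, 1.69, 3.38 and 3.69, so that ATH replicate 2 was again the lowest and replicates 3 and 4 the highest, as for the 10 genes, against 1.31 to 1.53 on the STD arrays. Of the 11 detected hepatocyte markers, which were detected on all 8 arrays, 10 had a lower ATH mean and 2 passed, with a median of -0.22. Their sum was 3882 to 4100 on the STD and 2641 to 3576 on the ATH arrays. The hepatocyte median fell by less than the 0.45 (log2) by which the 75th percentile used for scaling was higher on the ATH arrays. The sign of that median thus depends on the scaling. Of 7 detected neutrophil markers 0 passed (median 0.67, sum 1.63 to 3.36 and 3.25 to 14.4). Of 8 T and B cell markers 0 passed (median 0.25, sum 1.46 to 2.0 and 1.31 to 3.54). Of 8 endothelial, 9 stellate cell and 5 cholangiocyte markers, 1 each passed, Lyve1, Col3a1 and Sox9, with medians of 0.24, 0.35 and 0.16. Their sums were 21.2 to 28.8 and 21.9 to 33.7 for endothelial, 58.5 to 64.7 and 78.1 to 97.6 for stellate cell and 1.17 to 1.78 and 1.83 to 2.88 for cholangiocyte markers (STD and ATH). The part of these cell types in the differences of the 10 genes and of their reported targets was not tested.

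**Figure D5:**
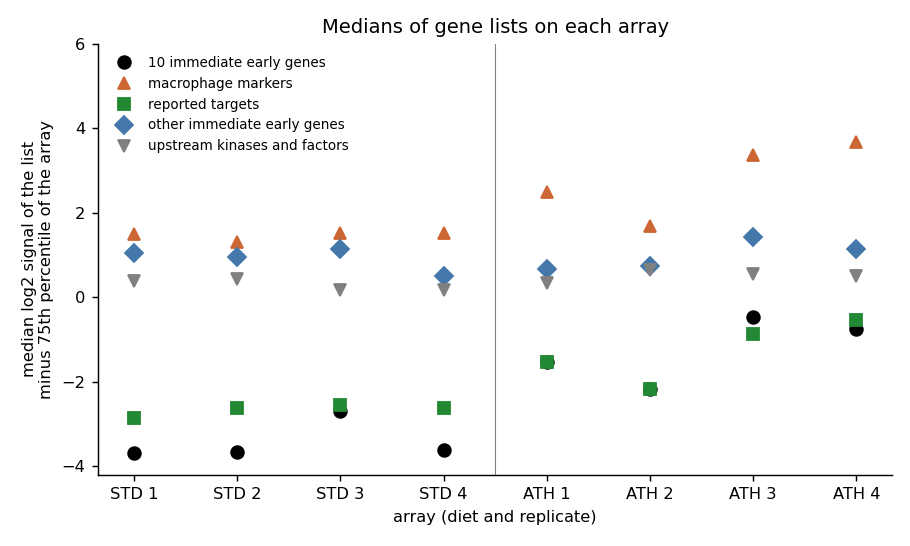
Median scaled log2 signal (vertical axis) of the 10 genes and of 4 lists on each of the 8 arrays (horizontal axis, diet and replicate). The 10 genes and the reported targets are higher on each ATH array than on any STD array, the macrophage markers likewise, with ATH replicate 2 the lowest of the ATH arrays in all 3, and the upstream kinases and factors stay between 0.18 and 0.65.

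Heat shock genes, which are induced by stress and by tissue handling, had a median difference near that of all genes. Of 10 detected genes, 1 was lower on the ATH diet by limma and 0 higher, with a median of -0.23. Over all named genes 9.34% passed, 5.3% of them all as lower, so 1 in 10 is near the share that passed. This was Hspd1, a mitochondrial chaperone gene, at -0.56 (SE 0.14, limma adjusted p = 0.047). It did not pass with the replicate block (0.069), with no scaling (0.58) or with any array left out (highest 0.12). The list's median per array was highest on STD replicate 3 (5.32) and, on the ATH diet, on replicate 3 (5.08), the arrays on which most of the 10 genes were highest. The part of handling in the levels was not tested.

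The genes most like Egr1, Fos and Jun were ranked by Pearson's r over the 8 arrays among 16540 other genes, as a description. These 8 arrays share a slide within a diet and a diet difference. Spsb3 (r = 0.980), Vmn1r25 (0.977) and Cenpi (0.971) were most like Egr1. For Fos they were Gpr143 (0.953), Smad3 (0.945) and Cdk20 (0.945), and for Jun Sgk3 (0.944), Stra8 (0.926) and Cramp1l (0.923). The 10 genes themselves were left out of this ranking, and none of these 9 genes is in the pathway lists. Gpr143 and Stra8 were dim, with STD means of -5.80 and -6.2.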

How the data were processed

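Liver RNA of 4 STD and 4 ATH mice was labelled and put on Agilent one-colour arrays. The authors ran Agilent Feature Extraction 9.5 with one-colour defaults, which gave the deposited spot intensity after background subtraction and detrending. A log2 table made in GeneSpring was deposited too, and 31595 of its probes served as an alternative. Repeat spots were averaged without those marked as outliers (17 values were then missing, none of the 10 genes). The log2 of this intensity minus the 75th percentile of its array, taken over all probes but controls, is the value given. A probe was detected if well above background on at least 3 of 4 arrays of a diet, as 31056 of 41174 were. These were tested for diet, two-sided, with limma 3.58.1 in R 4.3.3 (Benjamini-Hochberg, 5%). The test was first run on simulated data, in which 86.5% of 200 probes changed by 2 log2 were recovered, with 10 false among 183 calls.

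A gene was read from its detected probe with the highest mean over 8 arrays. Names came from RefSeq by accession (22951 probes), symbol (6659) or synonym (3109), and 8455 probes under the array's own name stayed out of counts of genes. Same-numbered arrays sit at the same position of their slides. In each such pair the residuals around the diet means were correlated (0.10, 0.23, 0.18 and 0.18), so replicate number as a block was an alternative, as was the methods' test (one-way, unequal variances). No label says whether replicates share a cage or a day, and the number of arrays limits the precision.

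The members and all gene lists were chosen with earlier results of these data known. Named genes were the 10, the called gene with the largest rise and decrease of each pathway list and the heat shock list (or the lowest adjusted p), and the 3 most like Egr1, Fos and Jun. Summaries used Python 3.11.15, numpy 2.4.6 and pandas 2.3.3, and plots matplotlib 3.10.9.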

Additional observations from a re-analysis of the deposited data

Results flagged for a closer look

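In 2 of 38 groups of 4 arrays, over the 13 probes and the named genes of the lists, 1 array stood far from the other 3 by Dixon's ratio (gap over range, beyond its 95% critical value), where chance gives about 1 in 20. Both were STD replicate 3. For the brighter Egr3 probe the ratio was 0.8738, with -2.82 against -4.82 to -5.11 on the other STD arrays. For the second Junb probe it was 0.8717, with 4.98 against 4.16 to 4.26.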

How the results depend on the processing

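The number of the 10 genes with no overlap between diets (4) and their median difference (1.15) moved by at most 1.5 times and by less than the spread between replicates, respectively, under 18 alternatives each. These were other scalings, normexp, the deposited log2 table, other filters, outlier spots kept, the median over probes and each array left out (4 to 6 genes, 0.86 to 1.25). Leaving out an array cannot make groups overlap that did not, so those runs could only keep or raise the count of genes. The lowest values were 3 genes, with spike-in scaling, normexp, detection on all 8 arrays and the median over probes, and a median of 0.52 with normexp. Single genes that turned sign were Fosb with no scaling (0.12) and without ATH replicate 2 (0.16, range -1.07 to 0.16 with an array left out), Junb with no scaling (0.19) and spike-in scaling (0.055), and Map2k2 with no scaling (0.072). The median over its 2 probes gave 0.70 for Fosl2 and -0.25 for Egr3, and normexp gave 2.14 for Egr2, 0.70 for Fosl2, 0.36 for Fos and 0.68 for Ier3. The number of pathway genes that passed 5% (14) was the least stable. It was 33 with no scaling, 9 with no detection filter, 1 at 1%, 0 by the methods' test as run here, and 1 to 22 with an array left out. Calls over all detected probes were 2482, and 394 to 3986 with an array left out. It stayed within 1.5 times of 14 under the other 9 of 21 alternatives. Pairing by replicate number (replicate block) gave 11, of which 10 were among the 14. Batf3, Dusp2, Klf4, Tnf and, among heat shock genes, Hspd1 were lost and Plau passed, which was well above background on 0 of 4 STD arrays and entered the test through 3 ATH arrays. Depth is not a count on arrays. Levels near background, as for Egr3 and Fosb, are the least certain, and 4 arrays a diet on 2 slides bound every comparison.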
